A study of Gallus gallus with 2 samples.

Results

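The peroxiredoxin and thioredoxin system was described in hearts of chicken embryos (Gallus gallus) through 9 genes, chosen by symbol, which are the peroxiredoxins PRDX1, PRDX3, PRDX4 and PRDX6, the thioredoxins TXN and TXN2, the thioredoxin reductase TXNRD1, the glutaredoxin GLRX and the glutathione reductase GSR. All 9 symbols were found among the 13011 gene names of the deposited tables. One library came from embryos exposed to AAPH, 2,2-azobis(2-amidinopropane) dihydrochloride, which decomposes into free radicals, and the other from embryos given saline. AAPH (2.6 µmol in a volume of 100 µL) was put into the air chamber of the egg at Hamburger-Hamilton stage 35, a stage of the standard morphological series of the chick, and again every other day until day 10. In both groups eggs were kept at 38 °C and 70% humidity and hearts were collected on day 11 (stage 37). The labels give no strain, no sex and no number of hearts per library, and only embryos that survived were used. Each group has 1 library, so no difference below has a replicate error, no test between groups was possible, and whether the groups overlap cannot be asked.

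Peroxiredoxins are enzymes that reduce hydrogen peroxide and organic peroxides with a reactive cysteine. In most of them the oxidised cysteine is restored by thioredoxin, a small protein that carries a pair of cysteines, and thioredoxin is restored by thioredoxin reductase, a selenocysteine enzyme that draws electrons from NADPH. Glutaredoxin does related work with glutathione, which glutathione reductase keeps in its reduced form, also at the cost of NADPH. In the heart, where mitochondria are dense, a separate mitochondrial branch made of PRDX3, TXN2 and the reductase TXNRD2 runs beside the cytosolic one.

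Levels are given in FPKM, a fragment number divided by the length of the transcript and by the size of the library, and were summed over the assembled transcripts of a gene, so that they can be ordered between genes. Differences are log2 ratios of AAPH over saline with 1 added to each FPKM, so the ratio of a scarce transcript is drawn toward 0. The 10106 genes whose mean over the libraries reached 1 FPKM were tested, and those that differed by at least 1.5-fold (log2 0.585) were called higher or lower. All 9 genes passed this filter.

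TXNRD1 was the 1 gene of the 9 called higher in the AAPH library, 0 were called lower and 8 lay within 1.5-fold. Over all tested genes 2.73% were called higher and 3.93% lower, and a single call is the smallest number above 0 that 9 genes can show. At a looser threshold (log2 0.32) 1 of the 9 genes was higher, against 11.6% of tested genes, and 3 (PRDX4, TXN2 and GSR) were lower, against 14%. As deposited, 7 of the 9 log2 ratios were below 0 and 2 (TXN and TXNRD1) above, where 49.5% of all tested genes were below 0. The median of the 9 was −0.24, against 0.0039 over all tested genes. After rescaling both libraries to the same total (TPM) 5 of the 9 lay above 0 and the median was 0.016. This rescaling moved the median of all tested genes by 0.23, and 8.4% of them were then called higher and 1.6% lower. The 9 genes' median differed from that of all tested genes by −0.25 as deposited and by −0.21 after rescaling. Abundant genes had lower log2 ratios as deposited, with a median of −0.15 at a mean of 100 to 1000 FPKM, where 6 of the 9 lie. Less the median of tested genes of like abundance, the 9 values ran from −0.36 (GSR) to 0.55 (TXNRD1). By this measure PRDX3, TXN and TXNRD1 lay above 0 and the others below. Fewer cells of a type and less RNA per cell cannot be told apart in these whole-heart samples.

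**Figure D1:**
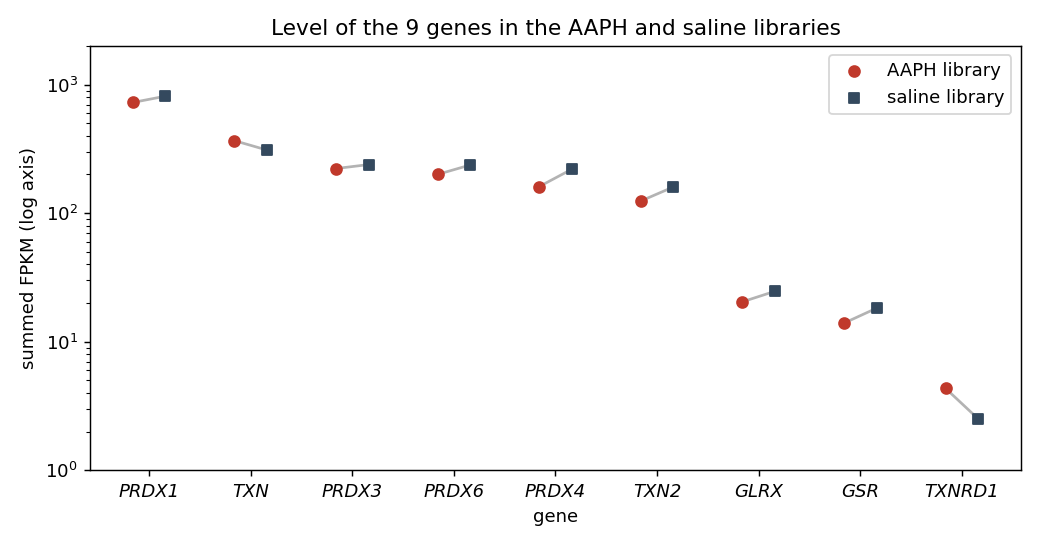
Summed FPKM of each gene (vertical log axis) in the AAPH library (red circles, left of each pair) and the saline library (dark squares, right of each pair), 1 library each, with grey lines joining the pair. The order of the 9 genes is the same in both libraries, from PRDX1 at 726 FPKM in the AAPH library and 813 FPKM in the saline library to TXNRD1 at 4.32 FPKM in the AAPH library and 2.51 FPKM in the saline library.

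The order of summed FPKM was the same in both libraries, which no scaling of a library as a whole can alter. With only the largest transcript of each gene, PRDX6 was ahead of PRDX4 in the AAPH library (169 and 161 FPKM) and behind it in the saline library (200.5 and 220 FPKM), and the other places were as before. PRDX1 stood first, followed by TXN, PRDX3, PRDX6, PRDX4, TXN2, GLRX, GSR and TXNRD1. Among all gene names PRDX1 ranked 136 in the AAPH library and 147 in the saline library, while TXNRD1 ranked 7720 in the AAPH library and 8859 in the saline library. In each library 6 of the 9 genes, the peroxiredoxins and both thioredoxins, were among the 1000 most abundant names. The 9 genes together held 1840 FPKM (0.176% of the summed FPKM) in the AAPH library and 2023 FPKM (0.162%) in the saline library. Of the 9 genes the reductase was the scarcest, and its substrate TXN the most abundant after PRDX1. The FPKM of TXN was 84.8 times that of TXNRD1 in the AAPH library and 123.6 times in the saline library.

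The 4 peroxiredoxins all lay within 1.5-fold, and their summed FPKM was 1310 in the AAPH library and 1508 in the saline library. PRDX1, the main cytosolic peroxiredoxin, was at 726 FPKM in the AAPH library and 813 FPKM in the saline library, a log2 ratio of −0.16. Of the summed FPKM of these 4 genes, PRDX1 held 55.5% in the AAPH library and 53.9% in the saline library. PRDX4 held 12.3% in the AAPH library and 14.6% in the saline library. PRDX2 and PRDX5 were not found among the gene names, so these are not shares of all peroxiredoxin RNA. PRDX3, the mitochondrial form, was at 222 FPKM in the AAPH library and 239 FPKM in the saline library (−0.10). PRDX6, which works with a single catalytic cysteine and also has a phospholipase activity, was at 200.2 FPKM in the AAPH library and 237 FPKM in the saline library (−0.24). For these 3 genes the sign depended on scaling, with log2 ratios of 0.10 (PRDX1), 0.16 (PRDX3) and 0.016 (PRDX6) after rescaling to TPM.

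PRDX4, the peroxiredoxin of the endoplasmic reticulum, where it helps to form disulphide bonds in new proteins, had the lowest log2 ratio of the 9 as deposited. Less the median of Z or of autosomal genes, GLRX was lower (−0.57). PRDX4 was at 161 FPKM in the AAPH library and 220 FPKM in the saline library, a FPKM ratio of 0.733 and a log2 ratio of −0.45. Its value was below 0 under each scaling tried, from −0.45 to −0.19. Of all tested genes 7.80% had a smaller log2 ratio, and of the 522 tested genes with a mean of 100 to 1000 FPKM 11.1% did. That class, to which the peroxiredoxins and thioredoxins all belong, had a median of −0.15 as deposited. The ratio of PRDX1 to PRDX4 within a library, which no scaling of the library can alter, was 4.51 in the AAPH library and 3.70 in the saline library.

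The cytosolic and the mitochondrial thioredoxin lay on opposite sides of 0. TXN, the cytosolic thioredoxin, was at 367 FPKM in the AAPH library and 310 FPKM in the saline library (log2 ratio 0.24). TXN2, the mitochondrial thioredoxin, was at 124 FPKM in the AAPH library and 160 FPKM in the saline library (−0.36). Neither passed 1.5-fold. Within a library, TXN was 2.95 times as abundant as TXN2 in the AAPH library and 1.94 times in the saline library, and the ratio differed between the libraries by a factor of 1.52, a log2 difference of 0.60 with the added 1. TXN lies on the Z chromosome, and less the median of Z genes for TXN and of autosomal genes for TXN2 this log2 difference was 0.29. TXN2 relative to PRDX3, the peroxidase it reduces, was 0.559 in the AAPH library and 0.67 in the saline library. TXN relative to PRDX1, its cytosolic partner, was 0.505 in the AAPH library and 0.381 in the saline library.

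The place of TXN on the Z chromosome is taken from the RefSeq gene table (assembly GRCg7b), and Z genes as a whole were higher in the AAPH library. Female birds carry a single Z chromosome and males a pair, and dosage compensation of Z genes is incomplete in chickens. The 377 tested Z genes had a median log2 ratio of 0.31, and 84.4% of them were above 0, against a median of 6.1e-05 and 50% above 0 in 8016 autosomal genes. At 1.5-fold 15.6% of Z genes were called higher, against 1.75% of autosomal genes. Less the Z median, the log2 ratio of TXN was −0.067. As deposited (0.24), it lay above 93.3% of genes of its own abundance class, which holds genes of all chromosomes. No value was adjusted for both Z and abundance. GLRX is the other of the 9 genes on Z, and less the Z median its log2 ratio was −0.57. The labels give no sex, so the sex make-up of the libraries and the treatment cannot be told apart for these genes, and the comparison with the Z median was chosen after the data were seen.

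**Figure D2:**
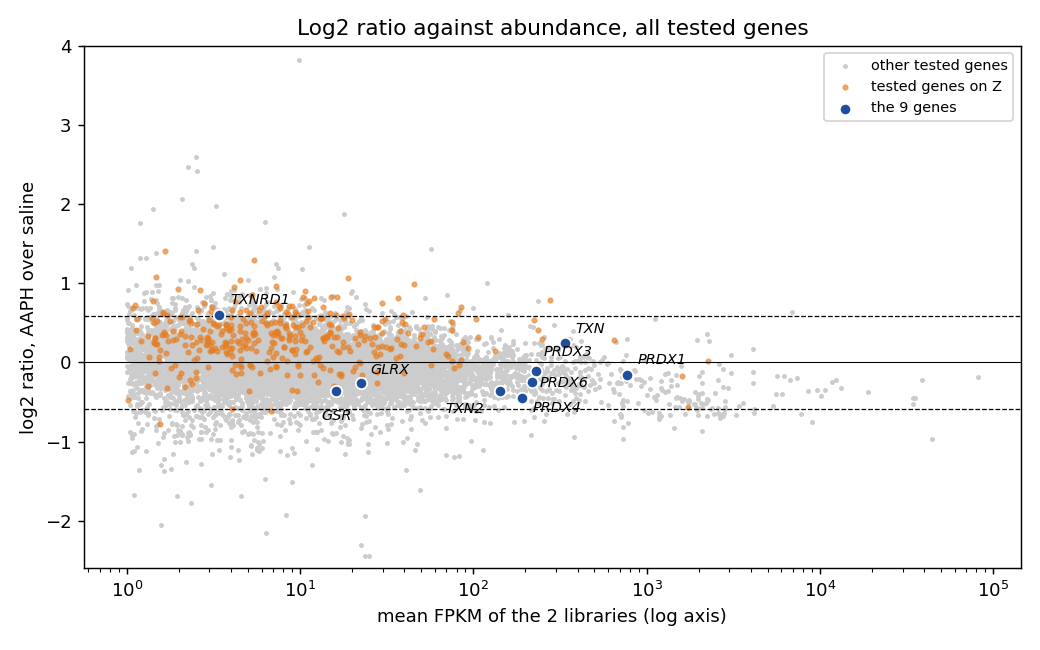
Log2 ratio of AAPH over saline (vertical axis) against mean FPKM of the 2 libraries (horizontal log axis) for all 10106 tested genes, with genes on Z in orange, the 9 genes in blue and dashed lines at 1.5-fold. TXNRD1 is just above the upper line, TXN lies among the Z genes' usual values, and the other 7 genes lie between 0 and the lower line as deposited; after rescaling to TPM PRDX1, PRDX3 and PRDX6 lie above 0.

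TXNRD1, the cytosolic thioredoxin reductase, was at 4.32 FPKM in the AAPH library and 2.51 FPKM in the saline library. The FPKM ratio was 1.72 and the log2 ratio with the added 1 was 0.602, just past the 1.5-fold line at 0.585. Of all tested genes 2.49% had a larger log2 ratio, and of the 3453 tested genes with a mean of 3 to 10 FPKM 2.92% (101 genes) did. Its value stayed past 1.5-fold under each scaling and pseudocount tried, from 0.60 to 0.81. Under these settings 2.26% to 8.53% of all tested genes were called higher. The rescalings raised the median of all tested genes by 0.23 and 0.21, and the other pseudocounts were smaller than 1. Those settings could therefore only raise a log2 ratio above 0, and they do not show that the call is robust. Less the median of tested genes of like abundance, TXNRD1 lay at 0.55, short of the 1.5-fold line. TXNRD1 did not reach 2-fold, and a filter at 5 FPKM leaves it out. TXNRD1 is not on Z, and less the median of autosomal genes its log2 ratio was also 0.60. The files give no fragment counts, so the counting error of these low values is unknown.

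The locus that holds the TXNRD1 transcripts in the files also holds a transcript named CHST11, a chondroitin sulphotransferase gene and a protein-coding neighbour of TXNRD1 in the RefSeq table. The CHST11 transcript was at 0.729 FPKM in the AAPH library and 0.736 FPKM in the saline library. The other reductases of the family were more abundant than TXNRD1 in both libraries. TXNRD2, the mitochondrial reductase that serves TXN2, was at 8.83 FPKM in the AAPH library and 6.84 FPKM in the saline library (log2 ratio 0.33). TXNRD3, a reductase with an added glutaredoxin domain best known from mammalian testis, was at 24.5 FPKM in the AAPH library and 25.4 FPKM in the saline library (−0.05). TXNRD2 and TXNRD3 lay within 1.5-fold, and whether they differ from TXNRD1 between the groups was not tested. They were singled out after their values were seen.

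Both genes of the glutathione branch had log2 ratios below 0 within 1.5-fold. GLRX, which removes glutathione from protein cysteines, was at 20.4 FPKM in the AAPH library and 24.7 FPKM in the saline library (−0.26). GSR, which regenerates reduced glutathione, was at 13.95 FPKM in the AAPH library and 18.2 FPKM in the saline library (−0.36). GLRX relative to GSR within a library was 1.46 in the AAPH library and 1.35 in the saline library. Their abundance class, 2966 genes with a mean of 10 to 30 FPKM, had a median of −0.004, and 15.8% of it lay below GLRX and 9.71% below GSR. After rescaling to TPM GLRX lay at −0.012 and GSR at −0.12.

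**Figure D3:**
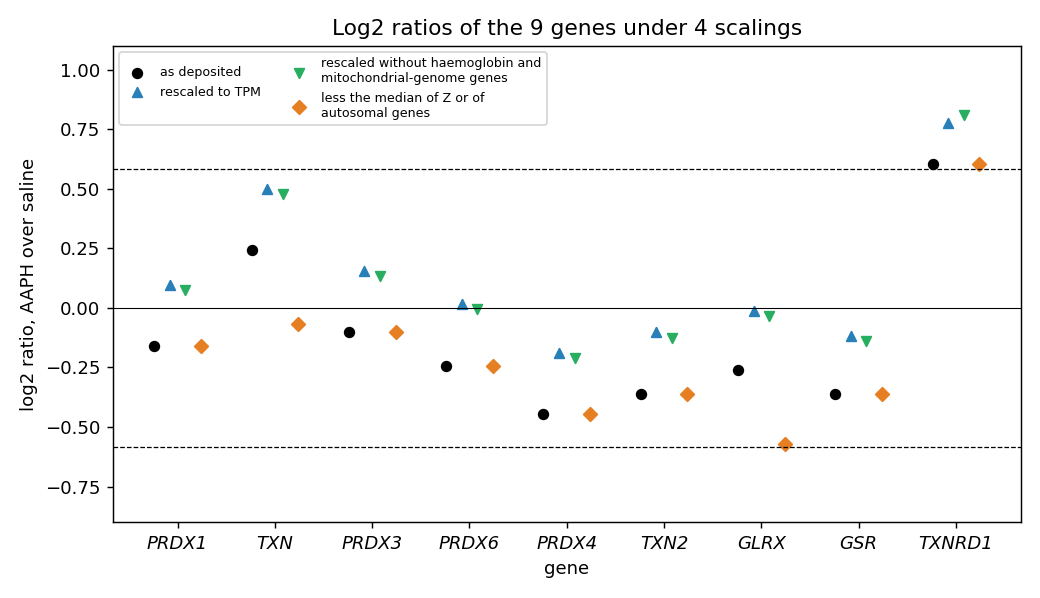
Log2 ratio of AAPH over saline (vertical axis) for each gene as deposited (black circles), rescaled to TPM (blue triangles), rescaled without haemoglobin and mitochondrial-genome genes (green inverted triangles) and less the median of Z genes or of autosomal genes (orange diamonds), with dashed lines at 1.5-fold. TXNRD1 is above the upper line in all 4, from 0.60 to 0.81, and PRDX4, TXN2, GLRX and GSR are below 0 in all 4. PRDX1, PRDX3 and PRDX6 change sign after rescaling to TPM. TXN is below 0 only less the median of Z genes (−0.067).

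Of the 9 genes, 6 had more than 1 assembled transcript, and in 5 of them no transcript's share differed by more than 2.16 percentage points between the libraries. The shares are estimates, since transcripts of 1 gene share most of their sequence. In PRDX6 the larger transcript was at 169 FPKM (84.3% of the gene) in the AAPH library and 200.5 FPKM (84.6%) in the saline library, and the smaller at 31.5 FPKM (15.7%) in the AAPH library and 36.5 FPKM (15.4%) in the saline library. In TXNRD1 the main transcript held 93.5% of the gene in the AAPH library and 93.4% in the saline library, at 4.04 FPKM in the AAPH library and 2.34 FPKM in the saline library, so the difference of the gene lay in its main transcript. Its next transcript, at 0.281 FPKM in the AAPH library and 0.165 FPKM in the saline library, had nearly the same FPKM ratio (1.71, against 1.73 for the main one).

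PRDX1 rested on 1 transcript, which held 100% of the gene in the AAPH library and 99.7% in the saline library. Its other transcript was listed at 0 in the AAPH library and at 2.2 FPKM in the saline library. The main transcript of PRDX3 held 95.6% of the gene in the AAPH library and 93.5% in the saline library, and that of TXN2 held 93.2% in the AAPH library and 95.3% in the saline library. PRDX4, TXN and GSR had a single transcript each.

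GLRX had the largest change of shares among these 6 genes. Its main transcript was at 19.0 FPKM (92.9% of the gene) in the AAPH library and 19.6 FPKM (79.3%) in the saline library. A smaller transcript, matched to the same reference transcript, was at 1.24 FPKM (6.08%) in the AAPH library and 5.01 FPKM (20.3%) in the saline library. Most of the GLRX difference thus came from the smaller transcript, and taken alone the main one had a log2 ratio of −0.04. A change of shares of this size, 14.2 percentage points, was usual in these libraries, since 49.4% of 6743 tested genes with more than 1 transcript had a larger one.

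**Figure D4:**
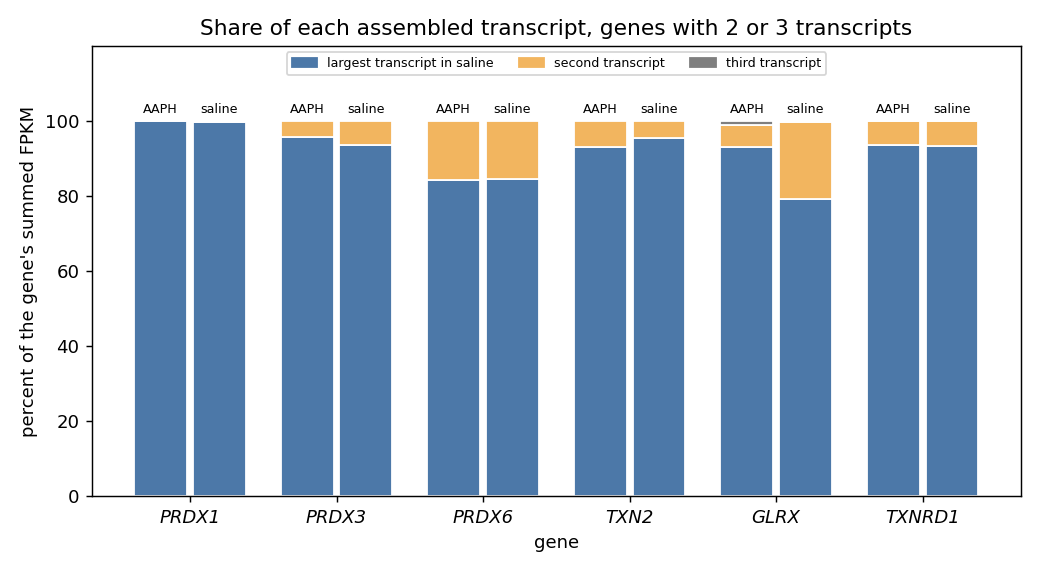
Percent of each gene's summed FPKM (vertical axis) held by its assembled transcripts, in the AAPH library (left bar of each pair) and the saline library (right bar), for the 6 genes with more than 1 transcript. The bars of a pair are alike except in GLRX, where the main transcript holds 92.9% in the AAPH library and 79.3% in the saline library.

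Beyond the 9 genes, 6 lists of related genes were read, with 67 symbols of which 53 were found and 50 passed the filter. Of these, 2 were called higher (4.0%, against 2.73% of all tested genes), 1 lower (2.0%, against 3.93%) and 47 neither, with a median log2 ratio of −0.0091. The genes called higher were GCLC and NNT and the gene called lower was PSTK. After rescaling to TPM 5 were higher, TXNL1, SECISBP2 and ERO1LB besides these, and 0 lower, which is 5 of 50 genes against 8.4% of all tested genes called higher and 1.6% called lower at that scaling. GCLC, the catalytic subunit of the enzyme that starts glutathione synthesis, was at 17.6 FPKM in the AAPH library and 9.77 FPKM in the saline library (log2 ratio 0.79). It is not on Z. GCLM, the regulatory subunit, was at 41.4 FPKM in the AAPH library and 32.9 FPKM in the saline library (0.33), within 1.5-fold, as was GSS, which completes glutathione (−0.14).

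Of 8 tested genes that supply NADPH, which both reductases use, 1 was called higher and 0 lower, and 6 of the log2 ratios were below 0 (median −0.21 as deposited). The shares over all tested genes were 2.73% higher and 3.93% lower, and 49.5% had a log2 ratio below 0. With 1 call in 8 genes there is no result about the list. The higher gene was NNT, the inner mitochondrial membrane transhydrogenase that makes mitochondrial NADPH, at 99.7 FPKM in the AAPH library and 64.4 FPKM in the saline library (0.62). NNT lies on Z, where the median was 0.31, and less that median it was no longer past 1.5-fold. The most abundant NADPH source of the list, the mitochondrial enzyme IDH2, was at 616 FPKM in the AAPH library and 739 FPKM in the saline library (−0.26).

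Of 5 tested genes for making selenocysteine and placing it into proteins such as TXNRD1, 0 were called higher and 1 lower. The shares over all tested genes were 2.73% higher and 3.93% lower, and 1 call in 5 genes gives no result about the list. PSTK, the kinase that prepares serine-loaded tRNA for the exchange to selenocysteine, was at 8.62 FPKM in the AAPH library and 14.1 FPKM in the saline library (−0.66). It came within 1.5-fold after either rescaling. SECISBP2, which binds the selenocysteine insertion element, lay at 0.44 and is on Z.

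As deposited, none of the 16 tested relatives of the family was called at 1.5-fold either way, where 2.73% of all tested genes were called higher and 3.93% lower. They ran from TXNL1, a thioredoxin-like protein tied to the proteasome, at 70.5 FPKM in the AAPH library and 47.9 FPKM in the saline library (0.55, on Z), to TXNDC15 at 5.76 FPKM in the AAPH library and 8.61 FPKM in the saline library (−0.51). The glutaredoxins of iron-sulphur cluster assembly, GLRX3 (−0.16) and GLRX5 (−0.17), lay near the middle. TMX1 did not pass the filter and was at 0.555 FPKM in the AAPH library and listed at 0 in the saline library.

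None of the 10 tested regulators and targets of the system was called, as deposited or after rescaling to TPM. Over all tested genes 2.73% were called higher and 3.93% lower as deposited, and 8.4% and 1.6% after rescaling. The 10 genes ran from SESN3 at 0.30 to SESN2 at −0.43, both sestrins, which are stress proteins linked to the repair of peroxiredoxins. Ribonucleotide reductase, which takes its electrons from thioredoxin or glutaredoxin, had log2 ratios of 0.14 for RRM1, 0.19 for RRM2 and 0.12 for RRM2B. In the endoplasmic reticulum, where PRDX4 works, 0 of 8 oxidative folding genes were called as deposited. ERO1LB, an oxidase that makes hydrogen peroxide as it forms disulphide bonds, lay at 0.46 and GPX7, a peroxidase of the same compartment, at −0.25, and the median of the 8 was −0.04, against −0.45 for PRDX4.

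**Figure D5:**
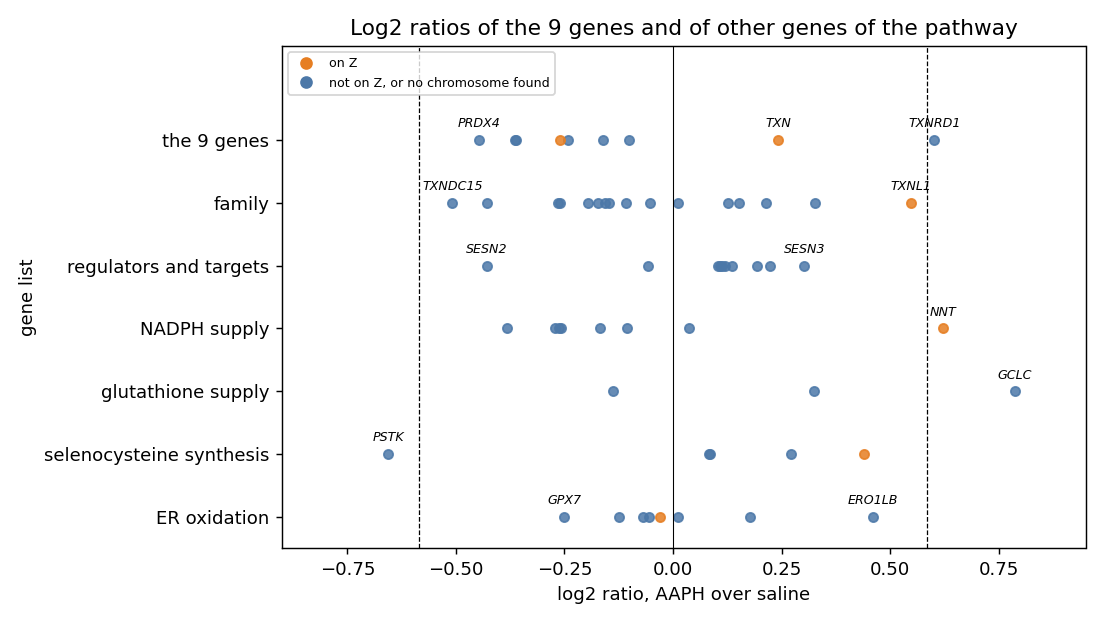
Log2 ratio of AAPH over saline (horizontal axis) of the 9 genes (top) and of the tested genes of 6 related lists, with genes on Z in orange and dashed lines at 1.5-fold, as deposited. TXNRD1 (0.60), GCLC (0.79) and NNT (0.62) lie past the upper line and PSTK (−0.66) past the lower one; PSTK came within 1.5-fold after rescaling to TPM.

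As to the samples as a whole, the labelled tissue was matched by heart muscle genes, with 9 of 10 listed markers found, none at 0, and a summed level of 36242 FPKM in the AAPH library and 41682 FPKM in the saline library. Of these 9, MYH7 was called lower as deposited (log2 ratio −0.76) and 8 were called neither. Markers of other cells also differed between the libraries. The 5 haemoglobin genes found summed to 2275 FPKM in the AAPH library and 3427 FPKM in the saline library. HBG2 held most of both sums, at 1695 FPKM in the AAPH library and 2267 FPKM in the saline library (−0.42). The other 4 were called lower as deposited, where 3.93% of all tested genes were. For 4 neuronal markers the sums were 21.2 FPKM in the AAPH library and 33.8 FPKM in the saline library. The 4 liver markers, nearly all APOA1, summed to 73.5 FPKM in the AAPH library and 157 FPKM in the saline library. Only APOA1 of them passed the filter, so that sum rests on 1 gene. Below the filter, ALB and FGB were lower and TTR higher in the AAPH library. For 7 fibroblast and epicardial markers the sums were 875 FPKM in the AAPH library and 972 FPKM in the saline library, for 7 endothelial markers 171 FPKM in the AAPH library and 169 FPKM in the saline library, and for 6 macrophage markers 17.6 FPKM in the AAPH library and 20.5 FPKM in the saline library. Parathyroid and thyroid markers, 5 found, summed to 29.9 FPKM in the AAPH library and 5.21 FPKM in the saline library, with TSHR at 0 in saline. PTH was at 19.3 FPKM in the AAPH library and 0.435 FPKM in the saline library. For TG the values were 4.97 FPKM in the AAPH library and 0.116 FPKM in the saline library. CALCA, which held most of the saline sum, was at 4.66 FPKM in the AAPH library and 4.51 FPKM in the saline library. All these marker sums are as deposited and were not rescaled to the same total. The direction of the smaller differences, as for heart muscle, fibroblast and macrophage markers, depends on that scaling. The part of the marker differences in the values of the 9 genes was not tested. Summed FPKM over all transcripts was 1042407 in the AAPH library and 1248089 in the saline library, and the number of sequenced fragments is unknown.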

How the data were processed

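RNA-seq of 2 heart libraries was read, 1 from AAPH embryos and 1 from saline embryos, grouped by the labels' chemical entry. The authors deposited FPKM for 27335 assembled transcripts of 14677 loci, per the file headers. Per the submitters' processing notes, the tools were bcl2fastq, TopHat2 2.1.1, Cufflinks 2.2.1 and Cuffdiff; the genome build is not given in the sources used here.

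Transcripts were summed by gene name. The 1968 transcripts without a name, 20.6% of AAPH and 18.2% of saline FPKM, were not used. With 1 library per group no p-value was computed. Chromosomes came from RefSeq (GRCg7b) by exact symbol for 83.2% of tested genes. In 781 genes of 1 transcript and 0.05 to 0.3 FPKM in saline, 88.0% of FPKM ratios were, within a tolerance of 0.0002, those of whole fragment numbers up to 10, where a fragment in the AAPH library counted for 1.05 times the FPKM of a fragment in the saline library. For 0 of the 3 members with 1 transcript (PRDX4, TXN and GSR) was such a pair found. The search allowed only pairs with a number up to 10, which suits genes of very low FPKM. It therefore could not give fragment numbers for these members. The factor of 1.05 was chosen as the one that gave the largest share of whole-number ratios. Absolute depth and counting intervals are unknown.

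All 9 members were named; of the other lists, called genes or else the highest and lowest, and further genes where the values helped. The members and lists were chosen with earlier results of these data known. The procedure was tested on simulated data, with an assumed depth, counting error only and changes larger than 1.5-fold. It therefore does not show how reliable a call near 1.5-fold is in these libraries. Python 3.11.15, numpy 2.4.6, pandas 2.3.3 and matplotlib 3.10.9 were used. Alternatives were rescaling, centring, pseudocount, filter, fold threshold and the largest transcript in place of the sum.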

Additional observations from a re-analysis of the deposited data

How the results depend on the processing

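TXNRD1 remained past 1.5-fold under both rescalings, centring, both other pseudocounts and with the largest transcript in place of the sum. With a mean FPKM of 5 or more TXNRD1 is left out, so 0 members were higher, where 1.83% of all tested genes were. At 2-fold 0 members were higher, where 0.36% of all tested genes were. At the looser threshold (log2 0.32) 1 member was higher and 3 were lower, where 11.6% of all tested genes were higher and 14.0% lower. The members' median was 0.016 after rescaling to TPM and −0.0056 when haemoglobin and mitochondrial-genome genes were left out of the rescaling, where the median of all tested genes moved by 0.23 and 0.21. Less the median of Z or of autosomal genes, a choice made after seeing the data, TXN lay at −0.067.

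Of the other pathway genes, 5 were higher and 0 lower under either rescaling. Of all tested genes 8.40% and 8.53% were then higher, and 1.60% and 1.83% lower. With the largest transcript only 6 were higher and 3 lower, where 7.60% of all tested genes were higher and 8.57% lower. At 2-fold 0 were higher and 0 lower, where 0.36% of all tested genes were higher and 0.78% lower. At the looser threshold 7 were higher and 5 lower, where 11.6% of all tested genes were higher and 14.0% lower. Less the median of Z or of autosomal genes 1 was higher and 1 lower, where 2.26% of all tested genes were higher and 4.02% lower. No paired analysis was possible because each group has 1 library. Unknown depth limits the low values most, TXNRD1 among them.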

Other observations

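Gene names of protein disulphide isomerases, selenoproteins and a selenium-binding protein were read after the values were seen, 3 of which (PDIA3, PDIA4 and PDIA6) the list of oxidative folding genes also holds. PDIA2, a protein disulphide isomerase best known from mammalian pancreas, was at 3.24 FPKM in the AAPH library and 8.10 FPKM in the saline library, a log2 ratio of −1.10. The broadly expressed isomerases lay close to 0, with PDIA3 at 245 FPKM in the AAPH library and 267 FPKM in the saline library (−0.12) and PDIA6 at 118 FPKM in the AAPH library and 123 FPKM in the saline library (−0.07). SELENBP1, a selenium-binding protein, was at 3.92 FPKM in the AAPH library and 6.17 FPKM in the saline library (−0.54). SEPP1, the plasma selenium carrier, was at 73.4 FPKM in the AAPH library and 58.9 FPKM in the saline library (0.31). Of the 12 genes read, 1 (PDIA2) was past 1.5-fold, where 2.73% of all tested genes were called higher and 3.93% lower. A single call among so few genes gives no result about them as a group.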
